A study of Homo sapiens with 6 samples.

Results

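The complement genes described here are 9 genes that stromal cells are known to express, taken by symbol from a table of 20332 genes in LX-2, an immortalised line of human hepatic stellate cells. They are C3, CFB, C1R, C1S, SERPING1, CFI, CD46, CD55 and CD59, and all 9 were listed. Stellate cells surround the liver's sinusoids and become matrix-producing myofibroblasts under TGF-β1. RNA was sequenced from 3 samples given TGF-β1 with compound 11 at 10 µM and from 3 given TGF-β1 with its solvent DMSO, for 48 h, so every sample received TGF-β1 and the labels set the groups apart by the compound alone. The labels call the compound only by its number, the design concerns its effect on TGF-β1-treated cells, and untreated cells were not analysed here. Nothing in the labels says that replicates came from separate cultures; p-values then measure only the spread among these samples, possibly a technical one.

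Complement is a cascade of plasma and tissue proteases that marks surfaces for removal. In the classical pathway the C1q recognition protein activates the protease C1r, which activates C1s, and C1s then cleaves C4 and C2. All routes meet at C3, whose cleavage coats a surface and, in the alternative pathway, recruits factor B to form an enzyme that cleaves more C3. Host cells limit this with the secreted C1 inhibitor and factor I and with the membrane proteins CD46, CD55 and CD59. Hepatocytes make most of the circulating components, and fibroblasts and other stromal cells make some of them locally.

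The deposited values are in TPM (transcript abundance per length, scaled to the same total of 1000000 in each library), which carry no sequencing depth, so counting error is unknown. Genes needed 1 TPM or more in 3 or more libraries to be tested. Of the 12067 that had it, 5984 passed an adjusted p of 0.05, which is 49.6% of those tested. Libraries of a group correlated at 0.993 to 0.994 across tested genes and libraries of different groups at 0.96 to 0.961, over genes that are not independent replicates. Of the stellate markers, PDGFRB, COL1A1, ACTA2 and TAGLN were present, with summed levels over the 6 markers of 196 to 213 TPM with compound 11 and 2009 to 2086 TPM in DMSO. DES was listed at 0 in all 6 libraries, and LRAT, the retinol-esterifying enzyme of resting stellate cells, did not exceed 0.028 TPM. LX-2 is a single cell line, and bulk RNA does not show whether the lower levels were shared by all of its cells.

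With compound 11, transcripts of C3, CFB, C1S and the membrane regulators CD46, CD55 and CD59 were higher, C1R was lower, and SERPING1 did not pass the test. That is 6 higher and 1 lower of the 8 members tested, beside 25.3% higher and 24.3% lower among all genes tested. The values of the groups did not overlap for 7 of the 8, beside 57.8% of all genes tested. C3 met the filter only through the compound 11 libraries and so had to differ, and CFI did not meet it. The median log2 fold change of the 8 was 0.52, beside -0.0013 for all tested genes. CD59 was the most abundant member at 1207 ± 36.4 TPM with compound 11 and 846 ± 8.78 TPM in DMSO, and C3 had the largest fold change of the 8 (SD, n = 3 per group here and throughout). The 9 members together took 0.139% to 0.146% of each compound 11 library and 0.101% of each DMSO library.

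**Figure D1:**
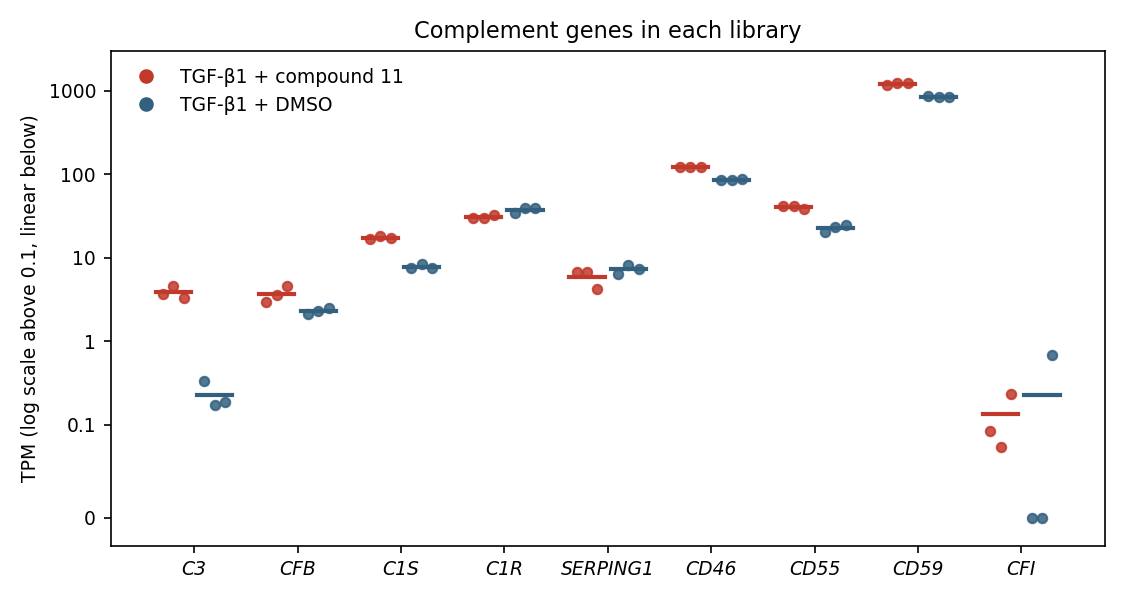
TPM of the 9 complement genes in each library, with the 3 TGF-β1 + compound 11 libraries left of the 3 TGF-β1 + DMSO libraries; points are libraries, bars are means, and the vertical axis is logarithmic above 0.1 TPM and linear below. The groups are separate for every gene but SERPING1 and CFI, and CD59 lies between 839 and 1237 TPM in all 6 libraries.

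Promoter sequence was available in the RefSeq table (GRCh38.p14, 250 bases before to 50 after a transcript start) for 6 of the 9 members. C3, C1S and SERPING1 had no entry. Where a gene had several starts, the window nearest to its start in GENCODE v29 was used. The sequences below are those of CFB, the called member whose window held most of the motifs searched, of CD59, the most abundant member, and of C1R and the neighbouring protease gene C1RL, which moved in opposite directions. They were chosen after the values were seen. Capitals mark every match, on either strand, to an NF-κB type motif (GGGA, 4 bases of any kind, CC), TTCNNNGAA (a STAT type motif), an interferon response type motif (GAAA, 2 bases of any kind, GAAA), TTGNNNAA (a C/EBP type motif) or TGANTCA (an AP-1 type motif), and some matches may overlap. Each runs 5′ to 3′ along the gene's own strand: CFB chr6:31945845-31946144 on the plus strand, CD59 chr11:33736430-33736729, C1R chr12:7092396-7092695 and C1RL chr12:7109165-7109464 on the minus strand.
CFB: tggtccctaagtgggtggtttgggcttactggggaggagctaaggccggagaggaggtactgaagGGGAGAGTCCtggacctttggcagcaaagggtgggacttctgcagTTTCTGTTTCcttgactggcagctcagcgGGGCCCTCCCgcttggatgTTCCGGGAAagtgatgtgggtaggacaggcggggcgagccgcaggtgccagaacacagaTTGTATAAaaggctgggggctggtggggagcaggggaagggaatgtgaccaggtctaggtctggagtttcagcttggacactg
CD59: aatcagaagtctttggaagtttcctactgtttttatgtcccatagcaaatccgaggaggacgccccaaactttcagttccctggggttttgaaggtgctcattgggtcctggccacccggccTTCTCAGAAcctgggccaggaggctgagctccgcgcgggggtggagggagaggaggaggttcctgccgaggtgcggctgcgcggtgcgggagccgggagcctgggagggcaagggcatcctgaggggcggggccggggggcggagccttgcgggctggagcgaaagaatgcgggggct
C1R: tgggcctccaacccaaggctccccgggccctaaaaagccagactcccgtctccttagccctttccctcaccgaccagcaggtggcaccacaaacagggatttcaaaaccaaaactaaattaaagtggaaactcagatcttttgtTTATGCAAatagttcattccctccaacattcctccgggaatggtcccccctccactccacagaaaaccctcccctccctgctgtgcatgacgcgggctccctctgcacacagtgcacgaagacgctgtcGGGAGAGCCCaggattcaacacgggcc
C1RL: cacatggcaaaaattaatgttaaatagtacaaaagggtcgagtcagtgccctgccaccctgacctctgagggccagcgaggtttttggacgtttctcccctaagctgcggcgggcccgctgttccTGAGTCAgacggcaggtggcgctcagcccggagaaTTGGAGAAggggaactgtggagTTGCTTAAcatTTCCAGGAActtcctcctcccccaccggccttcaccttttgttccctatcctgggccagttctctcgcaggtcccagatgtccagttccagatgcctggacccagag

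The CFB window held the NF-κB type motif at 2 places, 185 and 111 bases before the start and on opposite strands, and 1 match each to the interferon response type motif, TTCNNNGAA and TTGNNNAA, 140, 92 and 33 bases before it. The CD59 window held 1 match, TTCTCAGAA, 128 bases before the start. The C1R window held TTATGCAA, a match to TTGNNNAA on the other strand, 106 bases before the start, and an NF-κB type match, GGGAGAGCCC, after it. The C1RL window held TGAGTCA, TTCCAGGAA and 2 matches to TTGNNNAA, and the CD46, CD55 and CFI windows held none of the motifs. Among all 35116 promoter windows of this length, 25.6% held the NF-κB type motif, 7.66% TTCNNNGAA, 3.57% the interferon response type motif, 33.4% TTGNNNAA and 7.71% TGANTCA. GC content was 67.3% for CD46, 65% for CD55 and 64.3% for CD59, against 39.3% for CFI and a median of 58.7% over all windows. A match describes letters and is not evidence that a factor binds.

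C3, the protein on which all complement pathways converge, was at 3.64, 4.58 and 3.33 TPM with compound 11, against 0.332, 0.171 and 0.187 TPM in DMSO. The lowest compound 11 library was far above the highest DMSO library, which was itself below 1 TPM. The ratio of mean TPM was 16.7, with a log2 fold change of TPM + 1 of 1.97 (95% interval 1.62 to 2.33, limma, Benjamini-Hochberg adjusted p = 7.33e-06), and the ratio rests on DMSO levels at which small errors matter. The log2 fold change was 4.05 with a pseudocount of 0.01, which moves the value but not its direction or call. C3 met the filter only through the compound 11 libraries and so had to differ. Its interval, adjusted p and place among the tested genes therefore describe the difference and do not test it. Of the tested genes, 76 (0.63%) had a larger log2 fold change. Even so C3 ranked between 10375 and 10828 among the 20332 genes by level in the compound 11 libraries, and between 12924 and 13594 in the DMSO libraries.

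C3 is also a hepatocyte product, so the 8 hepatocyte markers were read beside it. Their summed level was 18.8 to 27.3 TPM with compound 11 and 3.32 to 4.22 TPM in DMSO. SERPINA1, the protease inhibitor alpha-1 antitrypsin, made up nearly all of it, at 18.7 to 27.1 TPM and 3.32 to 4.08 TPM. APOA1, TTR, APOB and HP were listed at 0 in all 6 libraries, and ALB, albumin, was listed at 0 in all but DMSO replicate 3, at 0.105 TPM. CYP3A4 was below the filter and higher without overlap, at 0.074 to 0.211 TPM with compound 11 and 0 in every DMSO library. FGB did not exceed 0.125 TPM, and its ranges overlapped. Of 7 macrophage markers, CD68 was at 131 to 147 TPM with compound 11 and 81.0 to 83.7 TPM in DMSO, while C1QB was at 0 in all 6 libraries and MARCO and CD163 did not exceed 0.155 TPM. LYZ and CD14 did not pass the test, with LYZ at 1.56 to 2.27 TPM against 2.39 to 2.88 TPM in DMSO and CD14 at 0.84 to 1.12 TPM against 1.27 to 1.61 TPM, ranges that did not overlap and were below those of DMSO. The summed macrophage list, carried by CD68, was 134 to 150 TPM with compound 11 and 85.2 to 88.2 TPM in DMSO. The summed level of 5 endothelial markers was 2.87 to 3.42 TPM with compound 11 and 0.813 to 0.963 TPM in DMSO. Most of it was PECAM1, at 2.37 to 2.99 TPM and 0.432 to 0.675 TPM. PECAM1 was called higher, but it met the filter only through the compound 11 libraries and so had to differ. VWF was below the filter and also higher without overlap, at 0.298 to 0.427 TPM with compound 11 and 0.205 to 0.228 TPM in DMSO. LYVE1 was at 0 in all 6 libraries and CDH5 did not exceed 0.153 TPM. The 4 cholangiocyte markers summed to 38.3 to 38.9 TPM with compound 11 and 26.1 to 31.7 TPM in DMSO, mostly SOX9, which was called higher. KRT7 was called lower, at 1.98 to 3.31 TPM with compound 11 and 3.35 to 4.67 TPM in DMSO (limma, Benjamini-Hochberg adjusted p = 0.035). KRT19 and EPCAM overlapped between the groups. The 4 lymphocyte markers summed to 0.705 to 1.94 TPM with compound 11 and 0.668 to 1.35 TPM in DMSO. The part of these markers in the result was not tested.

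By the root mean square distance between log2 profiles centred on the DMSO mean, over the 6 libraries, the tested genes nearest to C3 were CCRL2, MYCT1 and NR4A1, at distances of 0.0879, 0.103 and 0.107. CCRL2, an atypical chemoattractant receptor, averaged 5.55 TPM with compound 11 and 0.651 TPM in DMSO. Like C3, CCRL2 met the filter only through the compound 11 libraries and so had to differ. MYCT1 averaged 60.8 TPM with compound 11 and 14.7 TPM in DMSO, and NR4A1, an orphan nuclear receptor, 21.2 TPM and 4.39 TPM. The profiles are of TPM + 1, which shrinks fold changes where levels are below 1 TPM. C3 averaged 3.85 TPM with compound 11 and 0.23 TPM in DMSO, so nearness to it does not mean a like ratio of TPM. Genes near C1S were PGAP6, BTG1 and HMGA2, at distances of 0.0414, 0.0445 and 0.0493. BTG1, an antiproliferative factor, averaged 47.8 TPM with compound 11 and 23.3 TPM in DMSO, and HMGA2, a chromatin architectural protein, 112 TPM and 54.5 TPM.

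CFB encodes factor B, the protease precursor of the alternative pathway. It was at 2.99, 3.54 and 4.62 TPM with compound 11, against 2.14, 2.33 and 2.50 TPM in DMSO. The groups did not overlap, but compound 11 replicate 3 stood above its 2 partners. The log2 fold change was 0.49 (95% interval 0.15 to 0.84, limma, Benjamini-Hochberg adjusted p = 0.024), a 1.6-fold ratio of means. The call was lost without compound 11 replicate 3 (log2 fold change 0.36, adjusted p = 0.0823), without DMSO replicate 1 (log2 fold change 0.45, adjusted p = 0.0708) and without DMSO replicate 2 (log2 fold change 0.495, adjusted p = 0.0556). In GENCODE v29, CFB (chromosome 6, 31945650 to 31952084, GRCh38, protein-coding) overlaps the end of C2 by 23 bases, and 45% of its exonic bases are shared with an annotated read-through gene, AL645922.1, which the table lists at 0 in all libraries; how the authors' counting divided reads among them is not given in the sources used here. C2, the classical pathway partner of C4, was at 1.79, 2.23 and 2.61 TPM with compound 11 and 0.511, 1.95 and 0.983 TPM in DMSO, overlapping ranges that did not pass (log2 fold change 0.63 with SE 0.24, by limma, Benjamini-Hochberg adjusted p = 0.0536).

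C3 and factor B form the alternative pathway enzyme together, and their transcripts differed in proportion. The C3 to CFB ratio of TPM was 1.22, 1.29 and 0.719 with compound 11, against 0.156, 0.0735 and 0.0747 in DMSO. Thus C3 transcripts were scarcer than those of CFB in every DMSO library and more abundant in 2 of the 3 compound 11 libraries. The DMSO ratios rest on C3 levels below 1 TPM, whose counting error is unknown. C3 met the filter only through the compound 11 libraries, and this ratio was not tested.

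C1S encodes the C1 protease that cleaves C4 and C2. It was at 16.9, 18.0 and 17.2 TPM with compound 11, against 7.56, 8.46 and 7.45 TPM in DMSO. The ranges were well apart, and the spread within each group was below 0.6 TPM (SD 0.574 and 0.554). The ratio of means was 2.22 and the log2 fold change 1.06 (95% interval 0.86 to 1.26, limma, Benjamini-Hochberg adjusted p = 1.003e-05).

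C1R encodes the protease that activates C1s, and the C1r and C1s proteins act in the same complex. C1R was at 29.9, 30.0 and 32.9 TPM with compound 11, against 34.6, 39.8 and 39.0 TPM in DMSO. The compound 11 libraries were all lower, by a narrow margin between the nearest pair. The log2 fold change was -0.28 (95% interval -0.45 to -0.11, limma, Benjamini-Hochberg adjusted p = 0.011), and 2433 tested genes (20.2%) had a lower one.

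The neighbouring proteases C1S and C1R therefore moved in opposite directions. The C1R to C1S ratio was 1.77, 1.67 and 1.91 with compound 11, against 4.58, 4.70 and 5.23 in DMSO. These ratios could not overlap, because every compound 11 library had less C1R and more C1S than any DMSO library. An exact two-sided permutation test therefore had to reach its lowest value for 3 libraries against 3, p = 0.1 (0.125 adjusted over 5 ratios). It adds nothing to the calls of C1R and C1S. The sum of C1R and C1S overlapped between the groups, at 46.8, 48.0 and 50.1 TPM with compound 11 and 42.1, 48.2 and 46.5 TPM in DMSO.

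The genes lie side by side on chromosome 12. C1S spans 6988259 to 7071032 on the plus strand and C1R spans 7080199 to 7092607 on the minus strand (GRCh38, GENCODE v29, both protein-coding), with 9166 bases between them. C1RL, a C1r-like protease gene on the minus strand at 7089587 to 7109273, overlaps C1R by 3021 bases. C1RL was at 12.3, 14.9 and 14.6 TPM with compound 11, against 6.99, 6.17 and 5.29 TPM in DMSO. It rose with C1S and not with C1R, with a log2 fold change of 1.07 and an SE of 0.12 (limma, Benjamini-Hochberg adjusted p = 7.54e-05). C1R shares 11.4% of its exonic bases with C1RL, so the division of reads between them is uncertain. EMG1, whose exons share 3.54% of those of C1S, was at 18.4 ± 1.02 TPM with compound 11 and 19.4 ± 1.04 TPM in DMSO.

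**Figure D2:**
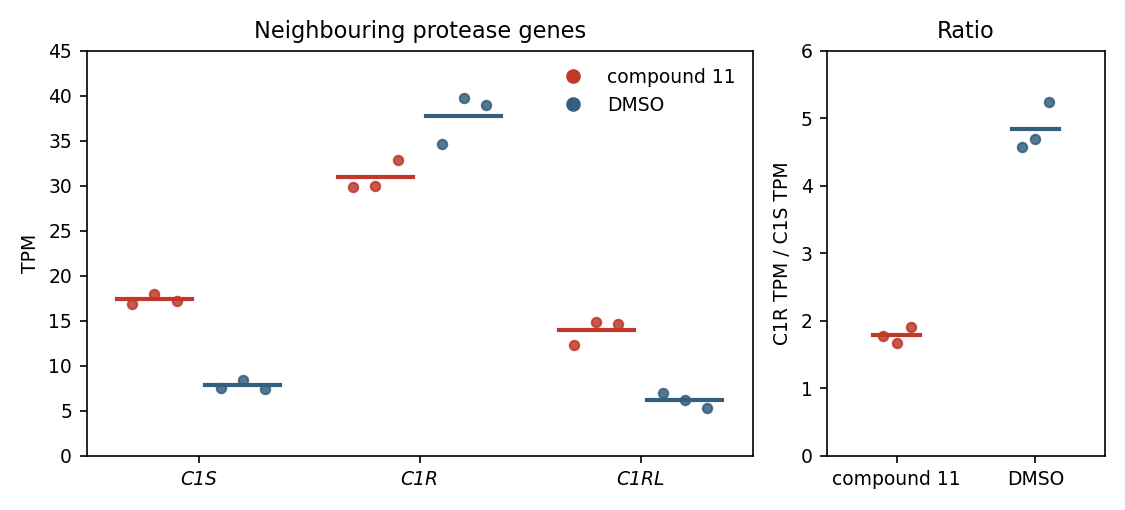
TPM of C1S, C1R and C1RL in each library (left) and the ratio of C1R to C1S TPM (right), with compound 11 left of DMSO; points are libraries and bars are means. C1S and C1RL are higher with compound 11, C1R is lower, and the ratio is below 2 in every compound 11 library and above 4.5 in every DMSO library.

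SERPING1 encodes the C1 inhibitor, which inactivates C1r and C1s. It was at 6.71, 6.76 and 4.23 TPM with compound 11, against 6.34, 8.12 and 7.34 TPM in DMSO. The ranges overlapped, and compound 11 replicate 3 was the lowest of the 6. The log2 fold change was -0.28 with a 95% interval of -0.66 to 0.10 (limma, Benjamini-Hochberg adjusted p = 0.199), an interval that holds both a fall and no change. Without compound 11 replicate 3 the log2 fold change was -0.09 (adjusted p = 0.6). Per unit of C1R and C1S transcript, SERPING1 was at 0.143, 0.141 and 0.0845 with compound 11 and 0.151, 0.168 and 0.158 in DMSO, separate by less than the spread within compound 11 (exact two-sided permutation p = 0.1, the smallest possible, 0.125 adjusted over 5 ratios).

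CFI encodes factor I, the protease that degrades C3b and C4b with cofactors such as CD46. It was listed at 0.094, 0.076 and 0.233 TPM with compound 11 and at 0, 0 and 0.687 TPM in DMSO. These levels are below the filter, and CFI was not tested. It shares 32% of its exonic bases with AC126283.2, itself at 0.148, 0 and 0 TPM with compound 11 and 0.555, 0.41 and 0.643 TPM in DMSO.

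The membrane regulators include the most abundant members. CD59, the surface protein that blocks assembly of the membrane attack complex, was at 1167, 1219 and 1237 TPM with compound 11, against 856, 843 and 839 TPM in DMSO. It ranked between 85 and 98 among all genes by level in the compound 11 libraries and between 151 and 158 in DMSO. The lowest compound 11 library was above the highest DMSO library by far more than the SD of either group, and the log2 fold change was 0.51 (95% interval 0.44 to 0.58, limma, Benjamini-Hochberg adjusted p = 1.12e-06). CD59 (chromosome 11, 33703010 to 33736491, minus strand) shares 6.07% of its exonic bases with AL049629.2, which was at 8.72 ± 7.55 TPM with compound 11 and 3.47 ± 2.07 TPM in DMSO.

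CD46, a cofactor for factor I on the cell surface, was at 123, 122 and 123 TPM with compound 11, against 84.3, 84.7 and 86.7 TPM in DMSO. Replicates lay within a few TPM of each other. The log2 fold change was 0.52 (95% interval 0.43 to 0.61, limma, Benjamini-Hochberg adjusted p = 5.05e-06).

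CD55, which speeds the decay of the enzymes that cleave C3 and C5, was at 41.1, 41.8 and 38.5 TPM with compound 11, against 20.4, 23.5 and 24.5 TPM in DMSO. The groups were well apart, and the ratio of means was 1.78, with a log2 fold change of 0.81 (95% interval 0.63 to 0.98, limma, Benjamini-Hochberg adjusted p = 3.03e-05). CD55 and CD46 lie on chromosome 1 at 207321376 to 207386804 and 207752057 to 207795513, both on the plus strand and 365252 bases apart. The complement receptor genes CR2 and CR1 lie between them and did not exceed 0.07 TPM in any library.

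Among CD46, CD55 and CD59, the largest fold change was that of CD55. The CD46 to CD55 ratio was 3.002, 2.91 and 3.19 with compound 11 and 4.14, 3.61 and 3.54 in DMSO, and the CD59 to CD55 ratio was 28.4, 29.1 and 32.1 with compound 11 and 42.0, 36.0 and 34.2 in DMSO. Both ratios were lower in every compound 11 library (exact two-sided permutation p = 0.1 for each, 0.125 adjusted over 5 ratios). The CD59 to CD46 ratio was 9.46, 10.0 and 10.1 with compound 11 and 10.1, 9.96 and 9.67 in DMSO, overlapping ranges (p = 0.7 by the same exact test). CD59 made up 87.6% to 88.5% of the summed level of these genes with compound 11 and 88.3% to 89.1% in DMSO.

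By level per length, the order in compound 11 libraries was CD59, CD46, CD55, C1R, C1S, SERPING1, C3, CFB and CFI. In DMSO it was CD59, CD46, C1R, CD55, C1S, SERPING1, CFB, C3 and CFI. With compound 11 the values of SERPING1, C3 and CFB overlapped each other, and in DMSO those of C1S and SERPING1 did, as did those of C3 and CFI. CD55 stood above C1R in every compound 11 library and below it in every DMSO library.

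**Figure D3:**
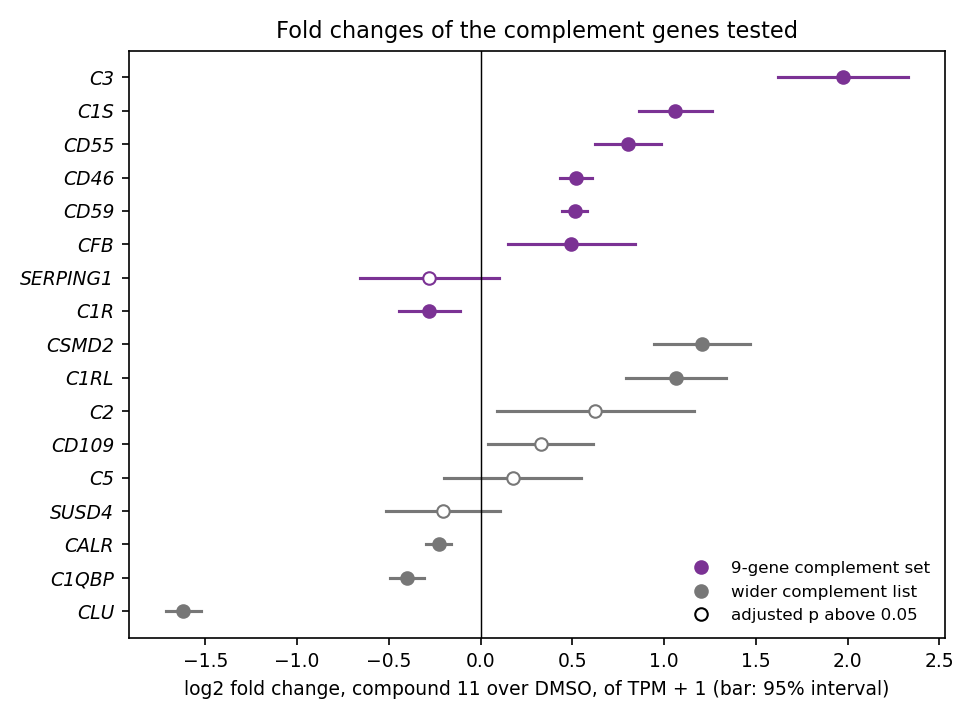
Log2 fold change (compound 11 over DMSO, of TPM + 1) with its 95% interval from limma for the 8 members tested (purple) and the 9 genes of the wider complement list that were tested (grey); open points did not pass an adjusted p of 0.05. C3, at 1.97, is the highest of all and CLU, at -1.62, the lowest.

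The other genes of the complement system were mostly at or near 0. Of 56 such genes, all listed in the table, 9 were tested, 2 rose, 3 fell and 4 did not pass, with a median log2 fold change of 0.17. Those 5 of 9 are near the 49.6% called among all genes tested. Among the 10 recognition genes, which include the C1q chains and the lectins, 0 met the filter, and C1QB and C1QC were at 0 in all 6 libraries. Of the 6 terminal pathway genes 0 met it, and C6, C7, C8A, C8B and C9 were listed at 0 throughout. C4A did not exceed 0.591 TPM and C4B 0.233 TPM; these near-identical genes cannot be told apart reliably. C5 was at 2.37, 3.11 and 2.85 TPM with compound 11 and 2.75, 1.72 and 2.65 TPM in DMSO, overlapping ranges that did not pass.

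CLU, clusterin, a secreted chaperone that binds terminal complement complexes, was at 216, 235 and 211 TPM with compound 11, against 682, 684 and 673 TPM in DMSO. Its mean was lower by a factor of 3.08 (log2 fold change -1.62 with SE 0.04, by limma, Benjamini-Hochberg adjusted p = 4.39e-09), in the opposite direction to CD46, CD55 and CD59. CLU was the most abundant secreted regulator on either list. VTN, vitronectin, was below the filter, at 0.189 to 0.515 TPM with compound 11 and 0.667 to 2.30 TPM in DMSO.

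CSMD2, a membrane protein with complement control repeats, rose to 8.12, 10.2 and 8.86 TPM with compound 11, against 3.30, 3.27 and 3.46 TPM in DMSO (log2 fold change 1.21 with SE 0.12, by limma, Benjamini-Hochberg adjusted p = 2.49e-05). Of the genes listed as receptors, C1QBP and CALR were tested and fell. C1QBP, mainly a mitochondrial matrix protein that also binds C1q, was at 279, 269 and 276 TPM with compound 11 and 377, 370 and 343 TPM in DMSO (log2 fold change -0.40 with SE 0.04, by limma, adjusted p = 4.27e-05). CALR, calreticulin of the endoplasmic reticulum, another C1q binder, was at 913, 953 and 955 TPM with compound 11 and 1115, 1105 and 1083 TPM in DMSO (log2 fold change -0.23 with SE 0.03, by limma, adjusted p = 0.000214). CD93, also described as a C1q receptor, was below the filter and differed in the other direction, at 1.05, 0.94 and 1.04 TPM with compound 11 and 0.063, 0 and 0.093 TPM in DMSO. SUSD4, a membrane complement inhibitor, and CD109, a relative of C3, had log2 fold changes of -0.20 and 0.33 and did not pass (adjusted p = 0.25 and 0.0569).

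**Figure D4:**
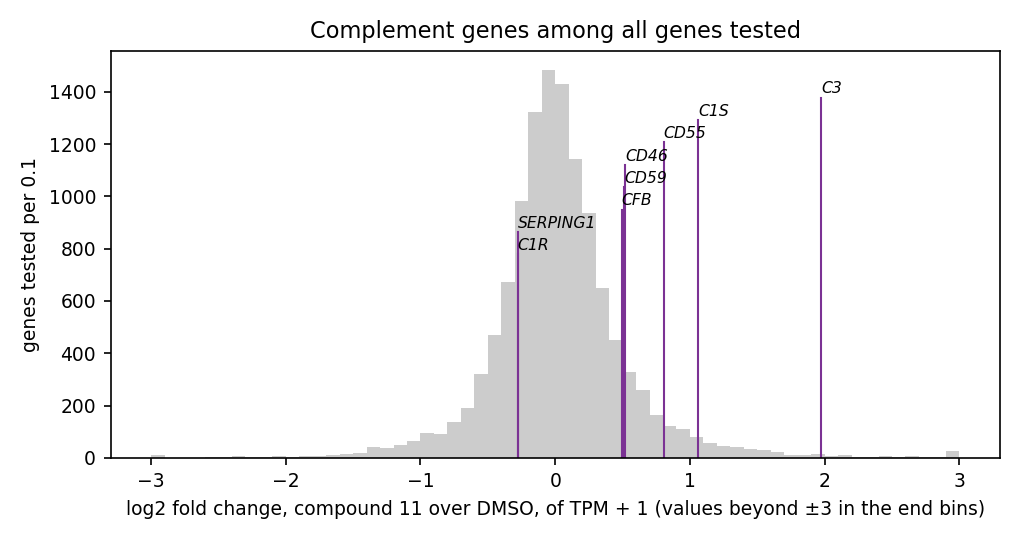
Histogram of log2 fold changes (compound 11 over DMSO, of TPM + 1) of the 12067 genes tested, in steps of 0.1, with purple lines at the 8 complement members tested. C1R and SERPING1 lie just left of the centre, CFB, CD46 and CD59 at about 0.5, and C3, at 1.97, in the right tail.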

How the data were processed

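Total RNA from LX-2 cells was extracted with Trizol and made into libraries with an Illumina TruSeq kit, per the labels' protocols. Bowtie 0.12.2 and the builds GRCh38.p12 and mm8, a mouse build, appear without roles in the submitters' processing notes; counter, annotation, strand and filters were not given in the sources used here. Headers of the deposited table say FPKM, but every column sums to 1000000, so its deposited values were treated as TPM. With totals fixed, depth is lost, and a gene can fall because others rise.

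Groups and replicate numbers were taken from the sample titles. The design had assumed the headers' unit; the test was kept. Values were transformed as log2(TPM + 1), and 12067 genes reaching 1 TPM in 3 or more libraries were tested with limma 3.58.1 (R 4.3.3), group only, two-sided, trended variances, and Benjamini-Hochberg adjustment over all genes tested. Ratios are of mean TPM. The pipeline was also run on simulated data, with far fewer changed genes than were called here, so no conclusion about these data is drawn from that run. Pairs of libraries had at most 8 tested genes with the same value. Positions and overlaps are from GENCODE v29; 20113 identifiers of the table were found there.

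The members and lists were chosen with earlier results of these data known. Named genes were the 9 members, genes of the wider complement list that passed, and, for members with an absolute log2 fold change of at least 1, the 3 genes nearest in profile; others are named as chosen after their values were seen. 1 gene of the wider list is not reported here. The rule's promoters of C3 and C1S and proteins of C1R, C1S and CD59 were not used here. Alternatives were other pseudocounts, filters, scalings and variance models, the replicate number as a block, each library left out, and, added after seeing the data, removal of the 20 most abundant genes.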

Additional observations from a re-analysis of the deposited data

How the results depend on the processing

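All 7 called members kept their direction under every alternative that tested them, and 6 of them, all but CFB, kept their call; SERPING1 passed under none. The number of members called was 5 to 7 over 15 alternatives (6 to 7 with 1 library left out), and was 5 with a mean of at least 5 TPM, which removes C3 and CFB from the test. The count over all genes was 5984, and 5204 to 6226 under the alternatives. Of the wider list 5 passed, and with 1 library left out the count was 5 to 6. With no filter, 35 genes of that list were tested and 9 passed. After removal of the 20 most abundant genes, 11 were tested and 9 passed (there C2 and CD109 also passed, and the cause was not tested). CD93, an endothelial and myeloid surface receptor, and CPN2, a carboxypeptidase subunit, were among the added calls in both settings (no filter: log2 fold changes 0.932 and -0.821). After the removal, CD93 met the filter only through the compound 11 libraries and CPN2 only through the DMSO libraries. Both therefore had to differ in that setting. CFI, tested with no filter, had a log2 fold change of -0.0723 (95% interval -0.549 to 0.404). The C1R call held with an adjusted p of at most 0.0441.

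Replicate numbers are shared by the groups, but the labels do not say that they pair samples. Same-numbered libraries correlated at 0.0794, 0.149 and 0.0663 in their deviations from group means, so the numbers were not taken as pairs, although every library correlated best with its own number. With the replicate number as a block, 6226 genes, 7 members and 6 genes of the wider list passed. Depth is unknown, so levels below 1 TPM, such as those of CFI and of C3 in DMSO, cannot be given a counting error.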
